A study of Mus musculus with 6 samples.

Results

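Chemokine genes counted in mouse gastrocnemius, the main calf muscle, are described here, 10 in number: the CC ligands Ccl2, Ccl6, Ccl7, Ccl9 and Ccl11, the CXC ligands Cxcl1, Cxcl10, Cxcl12 and Cxcl14, and the CX3C ligand Cx3cl1. They were chosen by gene symbol, and all 10 were found among the 46504 features of the table. PolyA RNA was measured in 3 restraint libraries, from wild type mice restrained in tubes of 50 mL, 3 h at a time and once every 4 days, and in 3 control libraries of wild type mice. Both groups carry the label day 4, and the strain, sex and age of the mice are not given in the sources used here. Whether the 3 libraries of a group are from separate mice is not stated in the labels, and the p-values reflect variation among libraries that may be partly or wholly technical.

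Chemokines are small secreted proteins that bind receptors coupled to G proteins on leukocytes and direct their movement along a gradient. Homeostatic chemokines such as CXCL12 are made steadily by stromal and endothelial cells, while inflammatory ones such as CCL2, CXCL1 and CXCL10 are induced by cytokines and injury. In muscle, CCL2 and its receptor CCR2 are known for bringing monocytes to damaged fibres.

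Libraries held between 44290720 and 44973655 reads in restraint and between 44814050 and 51125779 in control. Muscle markers such as Acta1 and Ckm summed to between 117588 and 124997 TPM in restraint and between 111156 and 125750 TPM in control, so the defining markers of skeletal muscle were present. Restraint 2 stood apart in 11 macrophage and monocyte markers, which summed to 79.5, 277 and 130 TPM in restraint 1 to 3 and to 84.0, 66.4 and 67.8 TPM in control 1 to 3. Control 2 had the largest share of mitochondrial reads, 19.3%, against 13.2% to 15.1% in restraint and 14.0% and 15.5% in the other controls. Neutrophil markers summed to 0.475, 5.72 and 1.86 TPM in restraint 1 to 3 and to at most 0.303 TPM in control, with Ly6g at 0 in all 6 libraries. Lymphocyte markers summed to at most 0.380 TPM in restraint and 0.399 TPM in control.

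The 10 genes differed widely in level on the length-corrected TPM scale. Cxcl14 averaged 34.9 ± 6.24 TPM (SD over the 6 libraries), Cxcl12 27.5 ± 6.05 TPM and Ccl11 27.3 ± 5.16 TPM, and these took the first 3 ranks in every library. Their ranges overlapped, so their order is not fixed by these data. Ccl6 came next in every library at 10.3 ± 6.33 TPM, its highest library overlapping the lowest of Ccl11. Ccl9 followed it in every library at 2.64 ± 1.27 TPM, apart from both neighbours in its range. Cx3cl1 at 1.01 ± 0.254 TPM, Cxcl10 at 0.900 ± 0.930 TPM and Ccl2 at 0.420 ± 0.120 TPM followed. The range of Cxcl10 overlapped those of Cx3cl1 and Ccl2 and, at up to 2.14 TPM, that of Ccl9, whose lowest was 1.79 TPM. The lowest Cx3cl1 library, at 0.699 TPM, lay above the highest of Ccl2, at 0.570 TPM. Cxcl1 and Ccl7, at means of 0.150 and 0.0737 TPM, were listed at 0 in some libraries. The first 4 genes made up 92.8% to 95.7% of the summed TPM of the 10 genes in restraint and 96.3% to 96.7% in control.

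**Figure D1:**
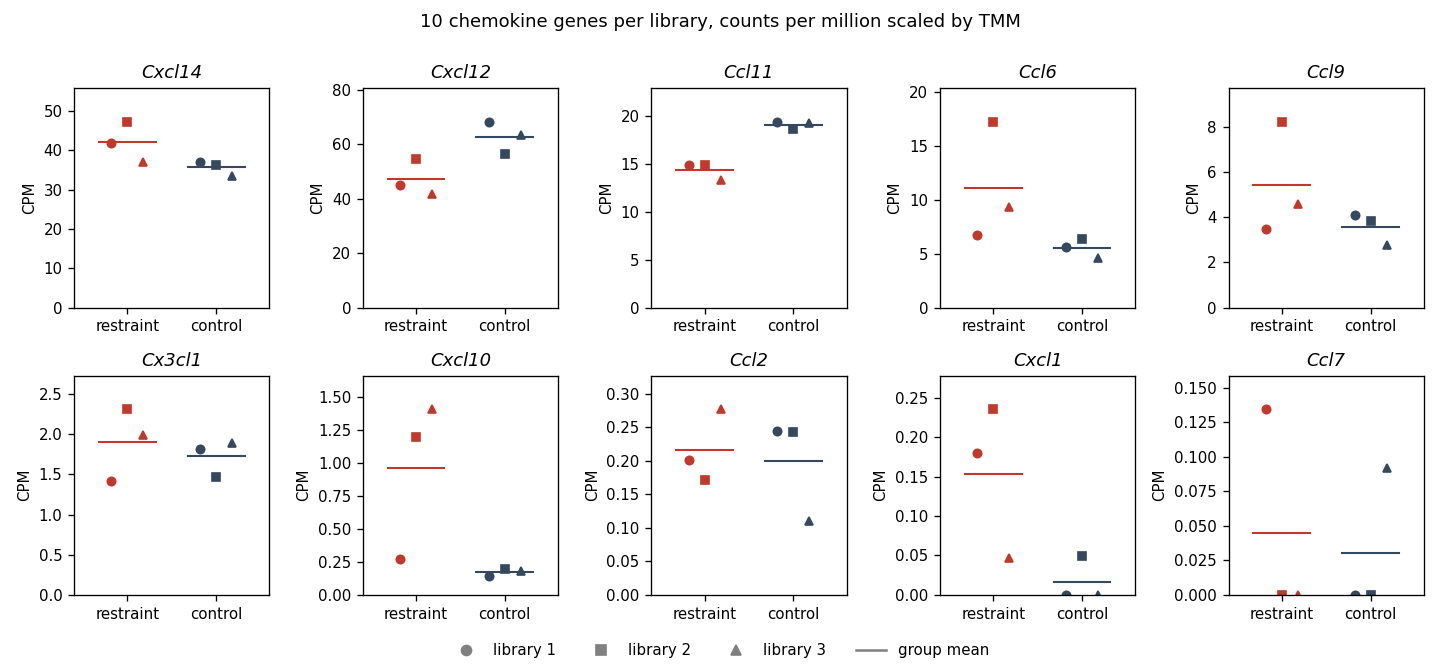
CPM scaled by TMM (vertical axes, each from 0) for the 10 chemokine genes, with restraint left and control right of each panel, points for single libraries and lines for group means. Groups lie apart for Ccl6 and Cxcl10, where restraint is higher, and for Ccl11 and Cxcl12, where restraint is lower.

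None of the 8 genes with enough reads for a test passed the edgeR quasi-likelihood test at an adjusted p of 0.05, where 1.83% of the 15448 features tested passed, 1.26% higher and 0.563% lower in restraint. Cxcl10 reached the level of the low-count filter only in its restraint libraries. At an unadjusted p under 0.05 there were 4 of the 8, namely Ccl6, Ccl11, Cxcl10 and Cxcl12, against 15.6% of all features. The CPM of the same 4 genes did not overlap between groups, as for 21.8% of all features. DESeq2 called 3 of the 8, Ccl6 and Cxcl10 higher and Ccl11 lower in restraint, where it called 5.24% of all features, 3.24% higher and 1.99% lower. Limma voom called none of the 8 and 1.36% of all features. The median log2 fold change of the 8 genes was 0.19, against -0.01 over all features tested. In bulk tissue, fewer cells of a type and less RNA per cell cannot be told apart.

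**Figure D2:**
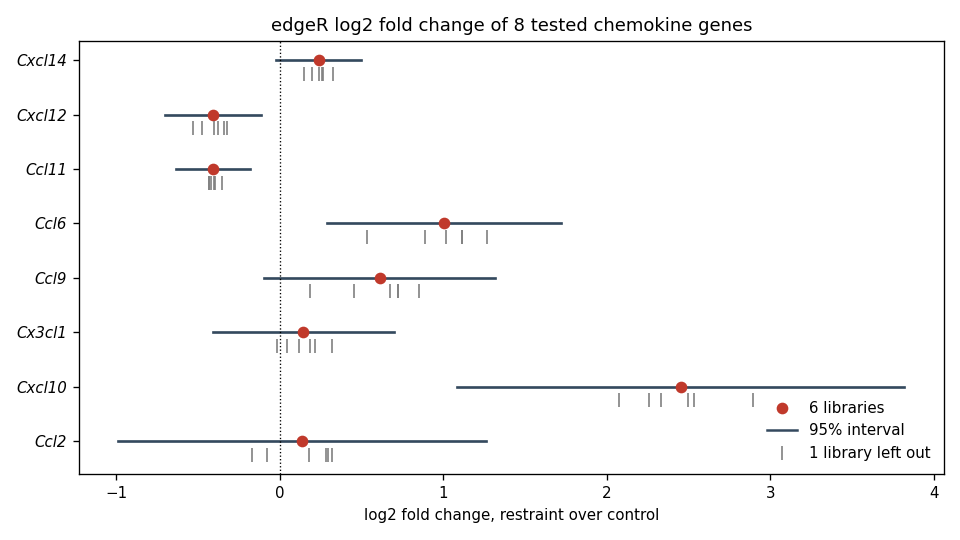
Log2 fold change of restraint over control by edgeR (horizontal axis) for the 8 tested chemokine genes, ordered by TPM; points are the estimates from 6 libraries, lines the 95% intervals and ticks the estimates with 1 library left out. Cxcl10 has the largest estimate, 2.45, and intervals of Cxcl14, Ccl9, Cx3cl1 and Ccl2 include 0.

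Cxcl12, or SDF-1, is the homeostatic ligand of CXCR4 that holds blood stem cells and lymphocytes in stromal niches. It stood at 45.1, 54.8 and 41.6 CPM in restraint 1 to 3 and at 68.3, 56.5 and 63.4 CPM in control 1 to 3. Every restraint library was below every control library, though restraint 2 and control 2 came close. The log2 fold change was -0.41 ± 0.13 (SE; 95% interval -0.71 to -0.11), with an edgeR adjusted p of 0.174. On the TPM scale the groups overlapped, with 22.9, 26.6 and 20.1 TPM in restraint and 34.4, 26.0 and 35.0 TPM in control, the overlap lying between restraint 2 and control 2.

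Ccl11, or eotaxin-1, attracts eosinophils through CCR3. It had 14.9, 14.9 and 13.3 CPM in restraint 1 to 3 and 19.4, 18.6 and 19.2 CPM in control 1 to 3. The groups were apart on this scale, and the spread within each was small, with an SD of 0.916 CPM in restraint and 0.404 CPM in control. Its log2 fold change was -0.41 ± 0.10 (95% interval -0.64 to -0.18), with an edgeR adjusted p of 0.0889 and a DESeq2 adjusted p of 0.0349. TPM again overlapped between restraint 2, at 26.3, and control 2, at 26.2.

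Cxcl14 is a homeostatic chemokine of stromal and epithelial tissue. It had 41.9, 47.2 and 36.9 CPM in restraint 1 to 3 and 37.0, 36.3 and 33.6 CPM in control 1 to 3. Restraint 3 lay within the range of the controls. The log2 fold change was 0.24 ± 0.11 (95% interval -0.02 to 0.50), with an edgeR adjusted p of 0.371.

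Read counts of these 3 abundant genes were also set against each other within each library, a measure that needs no scaling between libraries. Cxcl14 had 0.929, 0.861 and 0.887 reads per Cxcl12 read in restraint 1 to 3 and 0.541, 0.643 and 0.530 in control 1 to 3. Per Ccl11 read, Cxcl14 had 2.81, 3.17 and 2.77 reads in restraint and 1.91, 1.95 and 1.74 in control. Neither ratio overlapped between groups. Ccl11 reads per Cxcl12 read did overlap, at 0.307 ± 0.0312 in restraint and 0.306 ± 0.0232 in control (SD, n = 3 each). The ratios were picked after the values of the genes were seen, so they are a description with no test, and a ratio shows unequal change without telling which gene moved.

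**Figure D3:**
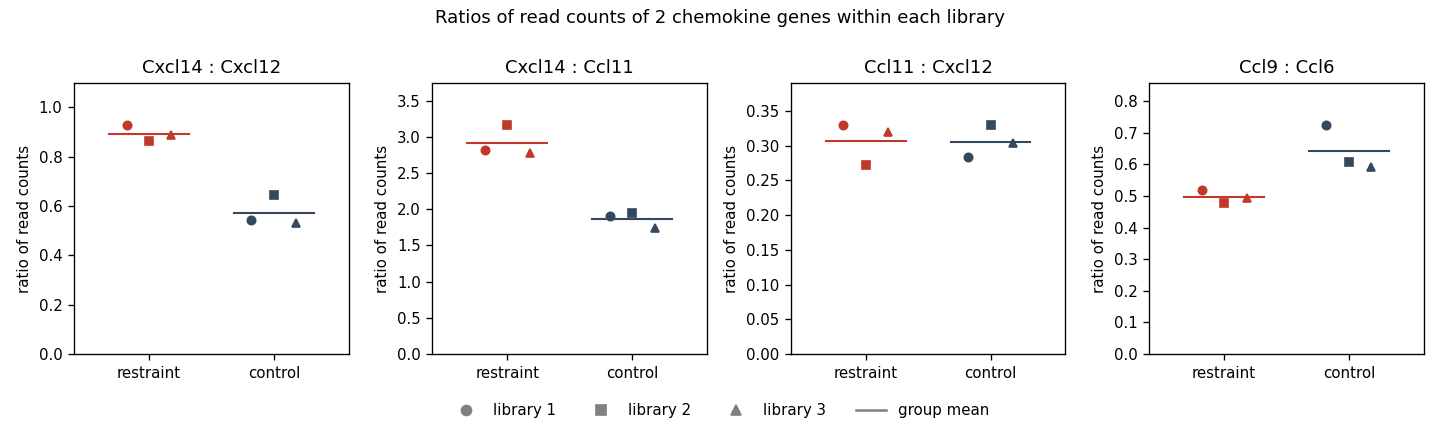
Ratios of read counts of paired chemokine genes within each library (vertical axes, each from 0), restraint left and control right, with points for libraries and lines for group means. Both Cxcl14 ratios are higher in all 3 restraint libraries, Ccl11 to Cxcl12 overlaps, and Ccl9 to Ccl6 is lower in all 3 restraint libraries.

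Markers of fibroblasts and fibro-adipogenic progenitors, cells known to make Cxcl12, summed to 513, 634 and 424 TPM in restraint 1 to 3 and 552, 428 and 520 TPM in control 1 to 3, with overlap. Dcn made up the largest part of these marker sums, averaging 336 TPM in restraint and 314 TPM in control. Per 100 TPM of these markers, Cxcl12 had 4.46 ± 0.267 TPM in restraint and 6.34 ± 0.343 in control, and Ccl11 had 4.58 ± 0.394 in restraint and 6.19 ± 0.530 in control. Cxcl14 had 7.31 ± 0.0583 in restraint and 6.32 ± 0.289 in control. On this scale none of the 3 overlapped between groups, nor did they per 100 TPM of endothelial markers, where Cxcl12 had 22.5 to 23.5 TPM in restraint and 26.8 to 33.0 TPM in control. The 7 tendon markers each had an estimate below 0, with sums of 49.2, 129 and 87.9 TPM in restraint and 146, 98.3 and 157 TPM in control. Their part in the lower Cxcl12 and Ccl11 of restraint was not tested.

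Ccl6 and Ccl9 are CC chemokines described in rodents, made mainly by myeloid cells, and both bind CCR1. They are neighbours on chromosome 11 of GRCm38, Ccl9 at chr11:83572917-83578636 and Ccl6 at chr11:83587886-83593087, with 9.25 kb and no annotated gene between them. The 250 bases before each start, from RefSeq on GRCm38.p6, are shown because the genes peaked in the same library. Capitals mark the longest run of letters that the windows share, 13 bases, which 5 of 32851 promoter windows held on either strand (0.0152%). Both windows are among the 5 because the run was picked from them, so its rarity is no test of shared control. Other pairs of genes were not compared in this way.
Ccl6 (minus strand, chr11:83593088-83593337): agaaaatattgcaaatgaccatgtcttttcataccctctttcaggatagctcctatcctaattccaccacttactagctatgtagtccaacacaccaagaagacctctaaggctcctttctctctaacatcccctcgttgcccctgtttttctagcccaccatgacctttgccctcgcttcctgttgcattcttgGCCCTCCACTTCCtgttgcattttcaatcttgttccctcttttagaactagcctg
Ccl9 (minus strand, chr11:83578637-83578886): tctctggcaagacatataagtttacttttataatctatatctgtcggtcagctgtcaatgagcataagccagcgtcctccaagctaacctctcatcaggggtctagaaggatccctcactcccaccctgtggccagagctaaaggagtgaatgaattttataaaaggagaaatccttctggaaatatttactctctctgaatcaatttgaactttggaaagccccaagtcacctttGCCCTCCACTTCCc
The run began 55 bases before the start of Ccl6 and 14 bases before that of Ccl9.

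Ccl6 had 298, 804 and 404 reads in restraint 1 to 3, or 6.69, 17.2 and 9.34 CPM, and 277, 260 and 253 reads in control 1 to 3, or 5.65, 6.33 and 4.64 CPM. Every restraint library was above every control, restraint 1 by a small margin and restraint 2 by far. The log2 fold change was 1.0 ± 0.31 (95% interval 0.29 to 1.72), with an edgeR adjusted p of 0.170 and a DESeq2 adjusted p of 0.0217. Without restraint 2 it was 0.54, with an edgeR adjusted p of 0.322.

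Ccl9 had 155, 384 and 199 reads in restraint 1 to 3, or 3.48, 8.22 and 4.60 CPM, and 201, 158 and 150 reads in control 1 to 3, or 4.10, 3.85 and 2.75 CPM. The groups overlapped, with restraint 1 inside the control range and restraint 2 highest. Its log2 fold change was 0.61 ± 0.31 (95% interval -0.09 to 1.32), with an edgeR adjusted p of 0.396, and it was 0.18 without restraint 2. Ccl9 had 0.520, 0.478 and 0.493 reads per Ccl6 read in restraint and 0.726, 0.608 and 0.593 in control, so the share of Ccl9 was lower in every restraint library.

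The levels of both genes were highest where macrophage and monocyte markers were highest. Each of these 11 markers had an estimate above 0, the median log2 fold change being 0.69. Of them, 1, Cd68, was called higher by edgeR, against 1.26% of all features. Cd68 was also the only marker whose CPM did not overlap between groups, as for 21.8% of all features. The marker sum of restraint 1, 79.5 TPM, lay within the 66.4 to 84.0 TPM of the controls. Lyz2, a lysozyme of macrophages, made up the largest part of the marker sums. It had 38.0, 162 and 69.1 TPM in restraint and 44.5, 28.3 and 34.4 TPM in control. Per 100 TPM of the markers, Ccl6 had 10.1, 8.20 and 8.40 TPM in restraint 1 to 3 and 8.14, 10.01 and 9.33 in control 1 to 3, which overlapped. Ccl9 had 2.52, 1.87 and 1.97 in restraint and 2.82, 2.90 and 2.64 in control, all restraint libraries being below all controls.

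**Figure D4:**
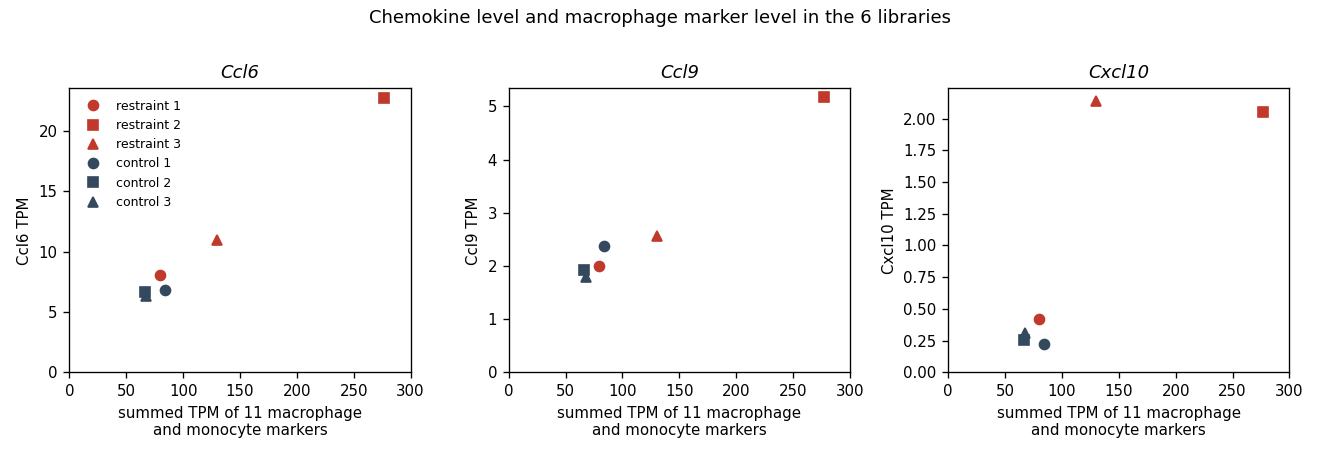
TPM of Ccl6, Ccl9 and Cxcl10 (vertical axes, from 0) against the summed TPM of 11 macrophage and monocyte markers (horizontal axes) in the 6 libraries, coloured by group. Restraint 2 is highest in markers at 277 TPM and in Ccl6 and Ccl9, while Cxcl10 is about as high in restraint 3 at 130 TPM of markers.

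Cxcl10, or IP-10, is induced by interferons and attracts T cells and natural killer cells through CXCR3, and Cxcl1, or KC, attracts neutrophils through CXCR2. Both are known targets of NF-kB, so the 250 bases before their starts are shown, from RefSeq on GRCm38.p6. Capitals mark matches on either strand to GGG and TTCC with any 3 bases between, a short form of the NF-kB site, and to GAAA repeated after any 2 bases, a short form of the interferon-stimulated response element.
Cxcl10 (minus strand, chr5:92348890-92349139): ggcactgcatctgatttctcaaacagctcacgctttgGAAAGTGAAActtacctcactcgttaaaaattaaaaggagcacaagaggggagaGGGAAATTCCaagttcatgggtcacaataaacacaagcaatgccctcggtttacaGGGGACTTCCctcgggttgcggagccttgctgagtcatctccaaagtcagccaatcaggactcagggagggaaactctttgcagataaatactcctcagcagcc
Cxcl1 (plus strand, chr5:90890995-90891244): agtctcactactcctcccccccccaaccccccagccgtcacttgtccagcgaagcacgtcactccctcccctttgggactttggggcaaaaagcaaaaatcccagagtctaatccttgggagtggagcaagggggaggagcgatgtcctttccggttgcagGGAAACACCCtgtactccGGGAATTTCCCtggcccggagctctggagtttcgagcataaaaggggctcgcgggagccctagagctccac
The first 10 capitals of Cxcl10 match the interferon element and the later ones the NF-kB form, and all capitals of Cxcl1 match the NF-kB form, once on each strand in its last run. Promoter windows were at hand for 7 of the 10 genes. The NF-kB form was in 3 of them, Cxcl1, Cxcl10 and Ccl9, and in 4.65% of 32851 windows, and the interferon form was in Cxcl10 and Cxcl14 and in 2.98% of windows. A match is a string of letters and not a measured site.

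Cxcl10 had 12, 56 and 61 reads in restraint 1 to 3, or 0.269, 1.20 and 1.41 CPM, and 7, 8 and 10 reads in control 1 to 3, or 0.143, 0.195 and 0.183 CPM. Restraint 2 and 3 stood far above the controls, and restraint 1 just above them. The log2 fold change was 2.45 ± 0.60 (95% interval 1.08 to 3.82), with an edgeR adjusted p of 0.0907 and a DESeq2 adjusted p of 0.00488. Cxcl10 entered the test only through its restraint libraries, so these values describe it and are no independent support for a difference. Without restraint 1, the lowest of its restraint libraries, the log2 fold change was 2.89 and passed edgeR, with an adjusted p of 0.00882. It stayed between 2.08 and 2.54 with any other library left out.

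The Cxcl10 gene (chr5:92346638-92348889 on GRCm38) lies inside Art3 on the opposite strand, and the sources used here do not say whether counting used strand. Whether exons of the pair overlap was not checked, so reads of 1 gene may have been counted for the other. Art3, which encodes an ADP-ribosyltransferase family member, had 177, 189 and 179 CPM in restraint 1 to 3 and 122, 136 and 132 CPM in control 1 to 3. It rose by 0.48 ± 0.10 on the log2 scale, with an edgeR adjusted p of 0.0458. Its part in the Cxcl10 counts was not tested. Cxcl11, another CXCR3 ligand inside Art3, had 0, 2 and 4 reads in restraint and 4, 8 and 4 reads in control.

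Cxcl1 had 8, 11 and 2 reads in restraint 1 to 3 and 0, 2 and 0 reads in control 1 to 3, too few for the filter. The ratio of summed reads scaled by library totals, 21 reads in restraint against 2 in control, was 11.3 with a 95% interval of 2.76 to 99.2 that covers counting error only. Restraint 3 and control 2 had the same 2 reads, below the floor of 3 counts per library that a 0 allows. With no filter, the edgeR adjusted p of Cxcl1 over 23147 features was 0.403.

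Ccl2, or MCP-1, and Ccl7, or MCP-3, attract monocytes through CCR2. With Ccl11 they lie in a row on chromosome 11, Ccl2 and Ccl7 being 8.26 kb apart and Ccl7 and Ccl11 10.31 kb apart, with no annotated gene between. Ccl2 had 9, 8 and 12 reads in restraint 1 to 3 and 12, 10 and 6 reads in control 1 to 3, a full overlap. Its log2 fold change was 0.13 ± 0.49 (95% interval -0.99 to 1.26), with an edgeR adjusted p of 0.930. Ccl7 had 6, 0 and 0 reads in restraint and 0, 0 and 5 reads in control, each group resting on 1 library. The ratio of its sums was 1.29 with a 95% counting interval of 0.328 to 5.34. Of the 3 neighbours, only Ccl11 was abundant.

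Cx3cl1, or fractalkine, is a membrane-anchored chemokine of endothelium that is shed by the proteases ADAM10 and ADAM17. It had 63, 108 and 86 reads in restraint 1 to 3, or 1.41, 2.31 and 1.99 CPM, and 89, 60 and 103 reads in control 1 to 3, or 1.82, 1.46 and 1.89 CPM. The groups overlapped. The log2 fold change was 0.14 ± 0.24 (95% interval -0.41 to 0.70), with an edgeR adjusted p of 0.839.

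Chemokine receptors were measured in the same libraries. Of 23 receptor genes, 18 had a read, 9 were tested and none passed edgeR, DESeq2 or limma voom. An unadjusted edgeR p under 0.05 was found for 1 of the 9, against 15.6% of all features. Their median log2 fold change was 0.40, and -0.05 without restraint 2. Ackr3, the scavenging receptor of CXCL12, was the most abundant and averaged 11.5 TPM in restraint and 13.5 TPM in control, with a log2 fold change of -0.26 ± 0.15. Cxcr4, the signalling receptor of CXCL12, averaged 2.26 TPM in restraint and 2.07 TPM in control, with a log2 fold change of 0.10 ± 0.22. Ccr2 had 75, 209 and 102 reads in restraint 1 to 3 and 110, 80 and 118 reads in control 1 to 3, highest in restraint 2. Ccrl2, an atypical receptor of the chemokine-like protein chemerin, averaged 4.75 TPM in restraint and 4.68 TPM in control.

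Some receptors had few or no reads where their ligands were counted. Ccr3, the receptor of eotaxins, had no read in the 6 libraries, which allows up to 3 reads per library, while Ccl11 was among the 3 most abundant chemokines. Cxcr2, the receptor of CXCL1, had 3, 3 and 0 reads in restraint and none in control. Cxcr3 had 0, 4 and 3 reads in restraint and 5, 6 and 0 reads in control. Cx3cr1, the receptor of fractalkine, had 13, 48 and 3 reads in restraint and 4, 4 and 6 reads in control, most of its reads lying in restraint 2.

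Of 31 other chemokine symbols, 30 were in the table, 21 had a read and 11 were tested. None passed edgeR or limma voom, and 4 had an unadjusted edgeR p under 0.05, namely Cxcl9, Cxcl13, Ccl21a and Ccl21b, against 15.6% of all features. DESeq2 called 2 lower, Cxcl9 and Ccl21a, against 1.99% of all features called lower. Their median log2 fold change was -0.31, and with 1 library left out it lay between -0.45, without restraint 2, and 0.004, without control 1. Ccl21a, a ligand of CCR7 made by lymphatic endothelium, was the most abundant, with 3.73, 5.27 and 5.32 CPM in restraint and 6.49, 7.77 and 7.69 CPM in control. Its log2 fold change was -0.62 ± 0.17 with an edgeR adjusted p of 0.132. Its reads may be split with the near-identical Ccl21b, which had -0.89 ± 0.25, so the pair may not be separate results. Ccl27a had a log2 fold change of 0.05 ± 0.24, the platelet chemokine Pf4 -0.31 ± 0.40 and Ccl25, a ligand of CCR9, 0.36 ± 0.20. Of the 26 genes of chemokine signalling and processing, 25 were tested and none passed edgeR, DESeq2 or limma voom. At an unadjusted edgeR p under 0.05 there were 3 of the 25, against 15.6% of all features. Their median log2 fold change was 0.03, and below 0 without restraint 2, at -0.11, and under a stricter filter on low counts, at -0.05. Among the most abundant, the GTPase gene Rac1 had 0.21 ± 0.10, the G protein genes Gnb2 and Gnai2 -0.04 ± 0.10 and -0.11 ± 0.10, and the receptor kinase gene Grk2 0.06 ± 0.10.

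The closest profiles among 10215 named genes were found for the 4 most abundant of the 10 genes by the root mean square difference of centred log2 CPM over the 6 libraries. For Cxcl14 they were Slc49a4 and Iqsec2, at 0.035 and 0.051. For Cxcl12 they were Tpst1 and Trps1, both at 0.043, and for Ccl11 Tead1 and Acaa2, at 0.031 and 0.040. For Ccl6 they were Ndrg4 at 0.073 and Fcgr2b, an inhibitory Fc receptor of myeloid and B cells, at 0.154. These are descriptions with no test.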

How the data were processed

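Whole read counts per feature were deposited by the authors with 1 column per library, beside the authors' FPKM and TPM values (units per the file headers). FPKM were not used. The submitters' processing notes name bcl2fastq 2.20.0, Trimmomatic, HISAT2 2.1.0, StringTie 2.1.3b and GRCm38 (mm10), with no role or order; use of strand is not stated in them. Counts of all 46504 features, 825 unannotated loci (4.84% to 7.14% of reads) included, entered the quasi-likelihood test of edgeR 4.0.16 (R 4.3.3; glmQLFit, glmQLFTest, two-sided) after filterByExpr (at least 10 reads per library and 15 in total) and TMM scaling, with Benjamini-Hochberg adjustment over 15448 features. Standard errors come from dividing the absolute log2 fold change by the root of F, and 95% intervals use the moderated degrees of freedom. CPM are scaled by TMM, and TPM compares levels between genes. Intervals of read ratios are exact binomial. Alternatives were DESeq2 1.42.0 and its size factors, limma 3.58.1 voom, library totals, no filter, a stricter one (10 reads on average, with all 3 libraries of either group at 1 CPM or more), a replicate block, no unannotated or mitochondrial features, each library left out and, added after seeing the data, limma on log2(TPM + 0.1). The same code was first tested on simulated data. Libraries of 1 group differed by more than counting noise in every pair (chi-square over its degrees of freedom, 29.3 or more). All 10 members, the called and the 4 most abundant genes of each list, and the closest profiles are named by rule; other genes, the read ratios, marker ratios and promoter motifs were chosen after values were seen. Members and lists were chosen with earlier results of these data known. Positions and promoters are RefSeq's on GRCm38.p6.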

Additional observations from a re-analysis of the deposited data

How the results depend on the processing

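Across 15 alternative settings, Ccl6, Ccl9, Ccl11, Cxcl10, Cxcl12 and Cxcl14 kept the direction of their log2 fold changes in each setting that tested them. All settings reuse the same 6 libraries, so this is no independent support. For Ccl6, Ccl11, Cxcl10 and Cxcl12 the CPM of the groups did not overlap, so leaving out a library could hardly turn the sign. Cxcl10 also entered the test only through its restraint libraries. With DESeq2 the calls numbered 809 over all features, 3 among the 10 chemokine genes and 2 among the other chemokines, against 282, 0 and 0 by edgeR. Limma on log2 TPM called 131 features and no listed chemokine. With a library left out, calls over all features ran from 16, without control 1, to 350, without restraint 1, and those among the 10 genes from 0 to 1. The sign turned with a library left out for Ccl2, from -0.17 to 0.32, and Cx3cl1, from -0.020 to 0.32. It also turned for Ccr2 (-0.069 to 0.69), Ccrl2 (-0.45 to 0.17), Cxcr4 (-0.055 to 0.24), Ccl27a (-0.18 to 0.28), Pf4 (-0.72 to 0.077) and Gnb2 (-0.11 to 0.0099). Their causes were not tested. Pairing by replicate number was not seen: deviations from the group means over features correlated at 0.01, -0.20 and -0.21 for numbers 1 to 3. Restraint 2 and 3 correlated best with another number. With 3 libraries per group the deviations are tied to each other, so these correlations cannot exclude a pairing. The replicate block left 60 calls over all features and none among the 10 genes. Ccl2, Cxcl10, Cxcl1 and Ccl7 rest on at most 61 reads in any library, so depth limits what can be said of them. Ccl2 and Cxcl10 had no value under the stricter filter.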

Other observations

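Cxcl9, which like Cxcl10 is induced by interferon-gamma and binds CXCR3, ran the other way from it. It had 19, 6 and 26 reads in restraint 1 to 3 and 54, 67 and 70 reads in control 1 to 3, with every restraint library below every control. The log2 fold change was -1.80 ± 0.47 with an edgeR adjusted p of 0.106, and between 0.00915 and 0.28 under the alternatives. Cxcl9 had 1.58, 0.107 and 0.426 reads per Cxcl10 read in restraint and 7.71, 8.38 and 7.00 in control. This ratio was picked after the values were seen, and Cxcl10 entered the test only through its restraint libraries. The contrast is therefore a description with no test. Cxcl9 lies outside Art3, at chr5:92321331-92328079, while Cxcl10 lies inside it and its counts may include reads of Art3.

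Cxcl13, a ligand of the B cell receptor CXCR5, had 25, 49 and 30 reads in restraint 1 to 3 and 0, 9 and 17 reads in control 1 to 3. It reached the level of the low-count filter in restraint 1 to 3 and, among the controls, only in control 3. Its log2 fold change of 2.09 ± 0.74 did not pass edgeR (adjusted p = 0.22). Ackr1, an atypical chemokine receptor of venules and red cells, had 55, 84 and 75 reads in restraint and 53, 24 and 58 reads in control, with an estimate of 0.79 ± 0.30 on the log2 scale (edgeR adjusted p = 0.253). These genes were chosen after their values were seen.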
